A study of Mus musculus with 52 samples.

Results

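The genes Klf2, Klf4 and Klf5 encode the Kruppel-like factors of the naive pluripotency network. They are 3 of the 24263 gene intervals kept from the study's gene table. Enhancers were assigned to them by distance: every entry of the study's enhancer lists whose centre lay within 100 kb of the transcription start site (TSS) was taken. This gave 10 of 16576 enhancers of epiblast-like cells (EpiLCs) and 9 of 8794 enhancers of mouse embryonic stem cells (mESCs). The study mapped histone marks, RNA polymerase II, Med1 and H3.3 by chromatin immunoprecipitation sequencing in 52 libraries, 9 from EpiLCs and 43 from mESCs, which fall into 34 groups. The mutant lines carry arginine in place of lysine 27 in all H3 (pK27R) or in canonical H3 alone (cK27R), or lack the Polycomb subunit SUZ12 (SUZ12KO) or H3.3, and H3.3 knockout clones were given back either the wild-type histone (pK27WT) or its K27R form. Their control is the line called ABE, whose H3.3 library carries the genotype label wild type. The mESCs of these libraries were kept without feeders in LIF with 2i, and their EpiLCs were taken after 48 hours of differentiation. The values of single libraries were not analysed here, so neither sequencing depth nor any effect of a mutation on these genes is given. The results describe regions, that is, where the enhancers lie, how wide they are and what sequence they hold.

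Other groups published the enhancer sets earlier, each with its own definition and cells, not those of the 52 libraries. A difference between the sets therefore cannot be told apart from a difference in definition or in the cells and culture used. The lists have no replicates, and all values below are descriptions without a test. Whether the cells the lists came from carried their cell type's markers could not be checked from coordinates.

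KLF2, KLF4 and KLF5 are zinc-finger transcription factors that bind GC-rich and CACCC-type DNA. They are known to act in partly redundant ways in mESC self-renewal, together with OCT4, SOX2, NANOG and ESRRB. Klf4 is a target of LIF signalling through STAT3, whereas KLF2 protein is destabilised when MEK and ERK are active, and KLF4 is one of the classical reprogramming factors. Distal enhancers downstream of Klf4 are known from work in mESCs.

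Within 100 kb the Klf genes differed in how their enhancers were divided between the sets. Klf2 had more EpiLC than mESC enhancers (6 and 3), Klf4 had equal numbers (2 and 2), and Klf5 had fewer EpiLC than mESC enhancers (2 and 4). More mESC than EpiLC enhancers were found at 11.5% of all TSSs, and Klf5 was the only one of the 3 genes in that class. The window and the joining of nearby regions changed these classes. Klf4 had 0 EpiLC and 1 mESC enhancer within 50 kb and 3 EpiLC and 2 mESC enhancers within 200 kb, and Klf2 had 3 in each set once nearby regions were joined across short gaps. Summed widths, taken as listed although each set has its own definition of an enhancer, separated the genes further. Klf2 had 13.7 kb of EpiLC enhancer and 8.49 kb of mESC enhancer, a ratio of 1.62. Klf4 had 1.18 kb of EpiLC enhancer and 22.3 kb of mESC enhancer, a ratio of 0.0527. Of this mESC width, 21822 bp belonged to 1 region. Klf5 had 3.35 kb of EpiLC enhancer and 30.5 kb of mESC enhancer, a ratio of 0.11. Klf2 was thus the only one with the greater width in the EpiLC set. The mESC width was the greater at 14.0% of all TSSs.

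**Figure D1:**
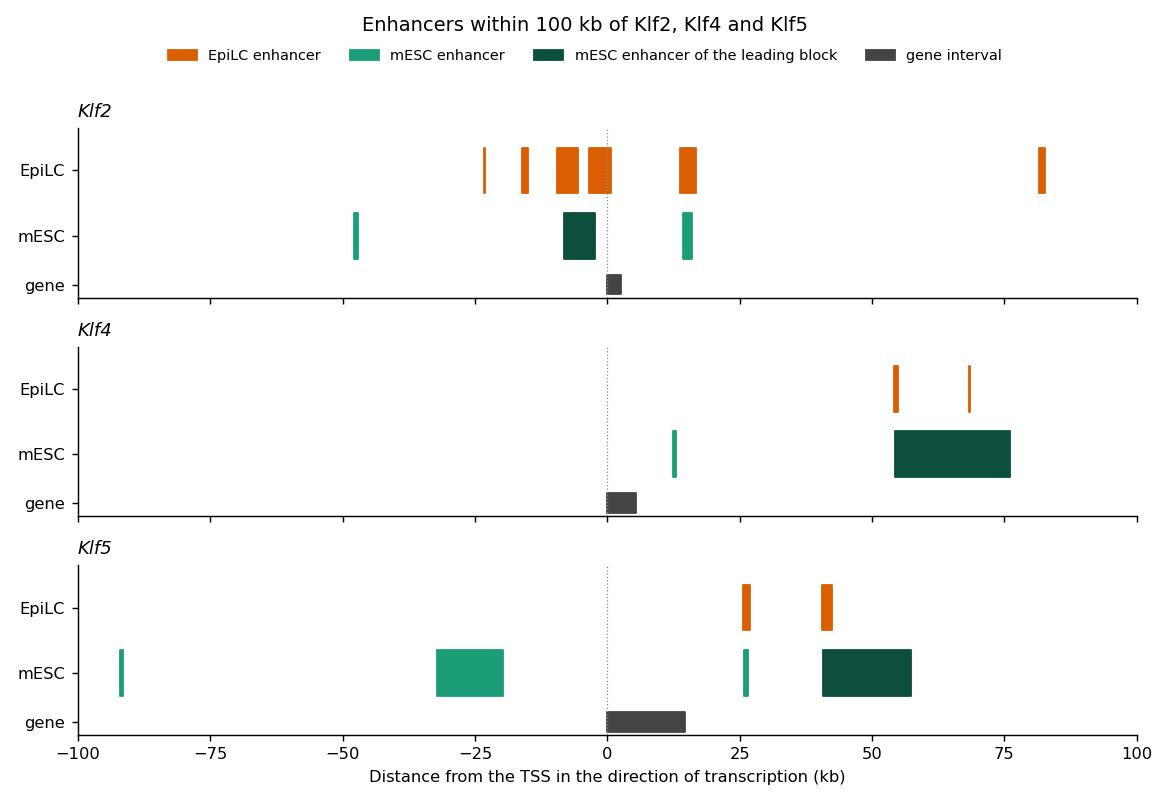
Positions of all enhancers centred within 100 kb of each TSS, with the EpiLC set above the mESC set and the gene interval at the bottom. The horizontal axis is the distance from the TSS in kb, positive in the direction of transcription. Klf2 has 4 EpiLC enhancers upstream of its TSS, whereas every EpiLC enhancer of Klf4 and Klf5 lies downstream.

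The genomic surroundings also differed. Among the kept gene intervals, Klf4 and Klf5 had no other TSS within 100 kb, which held for 11.6% of all TSSs. Genes outside these intervals were not counted. Klf2 had 2, those of Ap1m1, which encodes a subunit of a clathrin adaptor, at 79.04 kb upstream and of Fam32a at 99.33 kb upstream. In the EpiLC set 8 of the 10 enhancers had the Klf gene as nearest TSS among the kept intervals, and in the mESC set 7 of the 9 did. The exceptions were 1 EpiLC and 1 mESC enhancer at Klf2 and 1 of each at Klf4.

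Klf2 lies on the plus strand at chr8:72319062-72321654 (mm10, as all coordinates here). Its EpiLC enhancers were centred at -23.21, -15.57, -7.52, -1.32, 15.25 and 82.05 kb from the TSS and measured 350, 1281, 3975, 4129, 2925 and 1075 bp in that order. The EpiLC enhancer at -1.32 kb, chr8:72315673-72319801, ran across the TSS. An EpiLC enhancer covered the TSS of 14.0% of all gene intervals, an mESC enhancer that of 1.16%, and among the 3 Klf genes only Klf2 was so covered, by the EpiLC enhancer. This enhancer was also among the wider ones, since 13.1% of the EpiLC set was at least as wide. The most distant EpiLC enhancer, at 82.05 kb, lay in an intron of Eps15l1, a gene of endocytosis, and nearer to the TSS of that gene than to that of Klf2.

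The mESC enhancers of Klf2 were centred at -47.52, -5.29 and 15.11 kb and measured 673, 5978 and 1835 bp. The one at -47.52 kb was nearer to the TSS of Ap1m1. The wide one at chr8:72310787-72316764 overlapped the EpiLC enhancers at -7.52 and -1.32 kb and shared 3832 bp, or 64.1% of its length, with them. The downstream one at chr8:72333250-72335084 lay wholly within the EpiLC enhancer at 15.25 kb. The EpiLC enhancers at -23.21, -15.57 and 82.05 kb overlapped no mESC enhancer. Thus the nearest mESC regions of Klf2 on both sides had EpiLC counterparts at nearly the same place.

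The sequences of the Klf2 locus are shown for the regions nearest the gene. The first is the central 300 bases (chr8:72316069-72316368, plus strand) of the nearer of the 2 stretches shared by both sets upstream of the TSS. These bases held none of the 7 motifs searched, whereas the whole stretch of 1092 bp held 2 OTX matches. The other stretch, of 2740 bp, held the octamer at -7.75 kb and further TCF/LEF and OTX matches. The second is the promoter (chr8:72318812-72319111, plus strand, RefSeq on GRCm38.p6), with the GC box GGGCGG in capitals.
Klf2 shared stretch: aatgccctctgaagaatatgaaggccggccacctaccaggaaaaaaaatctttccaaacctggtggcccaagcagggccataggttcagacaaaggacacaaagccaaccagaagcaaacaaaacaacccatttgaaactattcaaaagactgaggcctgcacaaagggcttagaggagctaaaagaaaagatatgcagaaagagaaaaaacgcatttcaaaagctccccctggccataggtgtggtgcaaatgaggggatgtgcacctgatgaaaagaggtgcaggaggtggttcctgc
Klf2 promoter: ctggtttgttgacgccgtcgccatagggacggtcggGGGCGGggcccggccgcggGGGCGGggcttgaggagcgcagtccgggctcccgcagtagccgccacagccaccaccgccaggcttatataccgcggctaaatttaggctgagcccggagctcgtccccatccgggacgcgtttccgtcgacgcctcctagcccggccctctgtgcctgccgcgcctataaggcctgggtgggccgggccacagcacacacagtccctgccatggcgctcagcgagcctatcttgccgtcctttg

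Klf4 lies on the minus strand at chr4:55527137-55532475. Its EpiLC enhancers were both short, 875 bp at 54.54 kb downstream (chr4:55477502-55478376) and 300 bp at 68.37 kb downstream (chr4:55463952-55464251). In the EpiLC set 82.6% and 99.2% of all enhancers were at least as wide as these. The second lay in an intron of Gm12510. The mESC enhancers were one of 479 bp at 12.65 kb downstream (chr4:55519585-55520063) and one of 21822 bp centred 65.18 kb downstream (chr4:55456388-55478209). Only 0.455% of the mESC set was at least as wide as this second region. All 4 enhancers of Klf4 were downstream of the gene, and none of either set lay upstream within the window.

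Both EpiLC enhancers of Klf4 overlapped the 21822 bp mESC region. The one at 54.54 kb lay across its end nearest the gene with 80.9% of its bases inside, and the one at 68.37 kb lay wholly inside. Together they covered 1008 bp of that region, or 4.62%. The mESC enhancer at 12.65 kb, the nearest to the gene in either set, overlapped no EpiLC enhancer. The wide region and the EpiLC enhancer inside it at 68.37 kb were nearer to the TSS of Gm12505, which lies 113.63 kb downstream of that of Klf4, than to Klf4 itself.

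The Klf4 sequences show both places where the sets met and the proximal region found in the mESC set alone, all read on the minus strand, the strand of the gene. The stretch at 54.62 kb is the middle 300 bases (chr4:55477706-55478005) of the 708 bp shared with the first EpiLC enhancer. The stretch at 68.37 kb is the whole second EpiLC enhancer (chr4:55463952-55464251). Neither held any of the 7 motifs, and neither did the EpiLC enhancers as a whole. Each motif was also absent from most EpiLC enhancers of the lowest width quartile, to which both belong. The proximal mESC region is shown by its central 300 bases (chr4:55519675-55519974), with the OTX and POU octamer matches in capitals, both on the opposite strand. The promoter (chr4:55532426-55532725, RefSeq on GRCm38.p6) has its GC boxes in capitals, of which some overlap.
Klf4 shared stretch at 54.62 kb: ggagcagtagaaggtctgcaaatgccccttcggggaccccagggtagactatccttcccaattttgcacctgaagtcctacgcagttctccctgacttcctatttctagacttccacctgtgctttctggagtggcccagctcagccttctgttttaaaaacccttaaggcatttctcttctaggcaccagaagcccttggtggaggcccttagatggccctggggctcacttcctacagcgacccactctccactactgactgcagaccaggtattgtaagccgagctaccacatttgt
Klf4 shared stretch at 68.37 kb: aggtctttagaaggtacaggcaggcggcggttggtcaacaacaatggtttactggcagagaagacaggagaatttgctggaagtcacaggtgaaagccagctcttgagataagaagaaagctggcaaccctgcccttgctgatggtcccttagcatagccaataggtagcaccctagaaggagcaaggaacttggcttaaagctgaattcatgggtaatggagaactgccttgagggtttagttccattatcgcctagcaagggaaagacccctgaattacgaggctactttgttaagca
Klf4 mESC enhancer at 12.65 kb: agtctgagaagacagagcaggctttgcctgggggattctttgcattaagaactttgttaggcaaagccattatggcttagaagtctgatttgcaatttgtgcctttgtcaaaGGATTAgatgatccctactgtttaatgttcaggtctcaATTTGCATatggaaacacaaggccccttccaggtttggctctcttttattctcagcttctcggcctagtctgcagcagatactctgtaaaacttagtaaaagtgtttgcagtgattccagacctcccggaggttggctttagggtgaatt
Klf4 promoter: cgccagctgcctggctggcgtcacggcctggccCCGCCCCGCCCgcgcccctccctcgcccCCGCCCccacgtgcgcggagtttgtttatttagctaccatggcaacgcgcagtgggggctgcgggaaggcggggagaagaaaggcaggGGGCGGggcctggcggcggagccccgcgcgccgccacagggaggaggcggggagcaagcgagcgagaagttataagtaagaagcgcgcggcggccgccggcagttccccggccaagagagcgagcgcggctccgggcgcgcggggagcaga

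Klf5 lies on the plus strand at chr14:99298691-99313409. Its EpiLC enhancers measured 1350 bp at 26.26 kb (chr14:99324277-99325626) and 2000 bp at 41.44 kb (chr14:99339127-99341126), both downstream. The mESC enhancers were centred at -91.84, -25.96, 26.16 and 49.01 kb and measured 598, 12521, 629 and 16767 bp. The one farthest upstream lay in an intron of Pibf1, a gene named for a progesterone-induced factor. The 629 bp mESC enhancer lay wholly within the EpiLC enhancer at 26.26 kb. The 16767 bp mESC region (chr14:99339322-99356088) shared 1805 bp, or 10.8%, with the EpiLC enhancer at 41.44 kb, at its end nearest the gene.

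The EpiLC set had no enhancer upstream of Klf5 within the window. The mESC set had 2 there, the wider being the 12521 bp region at -25.96 kb (chr14:99266470-99278990). Its central 300 bases, not shown, are a repeat of C and T with a GC content of 31.3% and 0 CpG. That region belongs to 295 mESC enhancers of 10 kb or more outside the first part of the list described below, of which 80, or 27.1%, overlapped no EpiLC enhancer. The shared stretch nearest the Klf5 TSS is shown because there a whole mESC region lay inside an EpiLC enhancer. It is the middle 300 bases (chr14:99324703-99325002, plus strand). These bases held none of the 7 motifs, but the whole shared stretch of 629 bp held a TCF/LEF match at 25.94 kb.
Klf5 shared stretch at 26.16 kb: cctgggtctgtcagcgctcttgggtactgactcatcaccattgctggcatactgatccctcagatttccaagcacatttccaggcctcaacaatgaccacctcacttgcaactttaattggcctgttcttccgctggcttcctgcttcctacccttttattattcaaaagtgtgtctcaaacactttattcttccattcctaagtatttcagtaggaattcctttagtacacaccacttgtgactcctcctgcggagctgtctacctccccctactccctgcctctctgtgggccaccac

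Over the 3 genes, 7 of the 10 EpiLC enhancers overlapped an mESC enhancer by at least 1 bp, or 70.0%, against 25.9% of the whole EpiLC set. In the other direction 5 of the 9 mESC regions met one of the EpiLC set, or 55.6%, against 42.9% of the whole mESC set. In bases, 49.9% of the EpiLC enhancer length at these genes lay in mESC enhancers, against 13.8% over the whole EpiLC set. Of the mESC enhancer length at these genes 14.9% lay in EpiLC enhancers, against 34.7% over the whole mESC set. By gene this mESC share was 66.8% at Klf2, above that of the whole set, but 4.52% at Klf4 and 7.98% at Klf5. The counts by region depended on the rule for overlap. With the centre inside a region of the other set, 6 of 10 EpiLC enhancers and 2 of 9 mESC enhancers overlapped, against 18.8% of the whole EpiLC set and 34.3% of the whole mESC set. With at least 50% of both regions shared, 1 of 10 and 1 of 9 did, against 4.97% and 9.36%. With every region set to 500 bp around its centre, 2 of 10 and 2 of 9 did, against 14.1% and 26.1%. The mESC regions of 5978, 21822 and 16767 bp met 2, 2 and 1 of the EpiLC enhancers in that order. Whether region width raised the share found from 1 bp was not tested. Widths ran from 300 to 4129 bp in the EpiLC set (median 1315.5, against 1750 bp for all EpiLC enhancers) and from 479 to 21822 bp in the mESC set (median 1835, against 711 bp for all mESC enhancers). Of these regions 8 EpiLC and 8 mESC enhancers were centred between genes, and none was centred within 1 kb of a TSS.

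The farthest EpiLC enhancer inside the window of Klf2 was at 82.05 kb and the nearest outside at 102.94 kb. For Klf4 these EpiLC distances were 68.37 and 182.45 kb, and for Klf5 41.44 and 211.51 kb. In the mESC set they were 47.52 and 202.85 kb for Klf2, 65.18 and 243.8 kb for Klf4, and 91.84 and 114.64 kb for Klf5.

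Each Klf gene had 1 region from the first 231 entries of the mESC list, which are ordered separately from the rest and will be called the leading block. A region of the leading block was centred within 100 kb of 3.19% of all TSSs. The block is as large as the set of super-enhancers, long clusters of enhancers with high Mediator occupancy, in the publication that defined the mESC enhancers, but the list itself does not name it. The block regions were those at -5.29 kb of Klf2, 65.18 kb of Klf4 and 49.01 kb of Klf5. By width they ranked 146 (Klf2), 22 (Klf4) and 50 (Klf5) of 231, with a block median of 8667 bp and a range of 553 to 50163 bp.

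An EpiLC enhancer overlapped all 3 of these regions, as it did 96.5% of the block. The overlapped share of their bases was 64.1% at Klf2, 4.62% at Klf4 and 10.8% at Klf5, against a block median of 77.0% (quartiles 45.3 and 100%). A share no larger than that of Klf2 was found in 97 block regions (42.0%). For Klf4 it was 13 regions (5.63%) and for Klf5 16 (6.93%). Wide regions were covered less completely, so the Klf4 and Klf5 regions were also set beside the 108 block regions of 10 kb or more, whose median share was 51.7%. Among these, 7 (6.48%) were covered no more than the Klf4 region and 10 (9.26%) no more than the Klf5 region. The Klf4 and Klf5 block regions therefore lay at the low end of EpiLC coverage, and the Klf2 region near the middle.

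**Figure D2:**
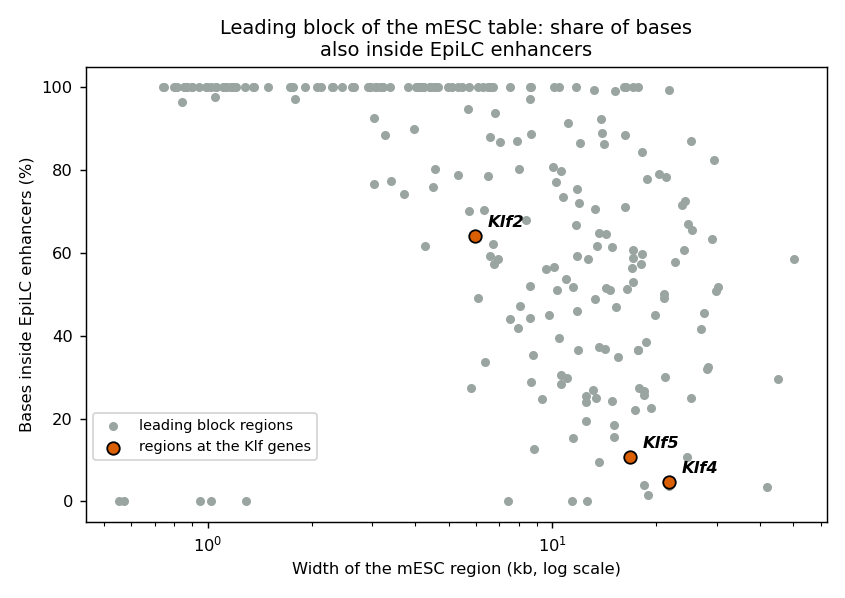
Width (horizontal, kb on a log scale) and share of bases inside EpiLC enhancers (vertical, percent) of the 231 leading block regions of the mESC list. Each grey point is a region, and the marked points are those at the Klf genes, of which Klf4 (4.62%) and Klf5 (10.8%) are near the bottom and Klf2 (64.1%) is not.

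Set against all 24263 TSSs, the EpiLC counts of Klf4 and Klf5 were ordinary and that of Klf2 was high. At least as many EpiLC enhancers were found at 10.3% of TSSs for Klf2 and at 53.3% for both Klf4 and Klf5, with a median of 2 over all TSSs. In the mESC set at least as many were found at 8.31% of TSSs for Klf2, 23.3% for Klf4 and 2.31% for Klf5, with a median of 1. Summed EpiLC width was matched or exceeded at 13.3% of TSSs for Klf2, 67.0% for Klf4 and 47.7% for Klf5. Summed mESC width was matched or exceeded at 6.2% for Klf2, 0.725% (176 TSSs) for Klf4 and 0.152% (37 TSSs) for Klf5. The order of the genes by mESC width was therefore Klf5, Klf4, Klf2, and by EpiLC width Klf2, Klf5, Klf4.

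**Figure D3:**
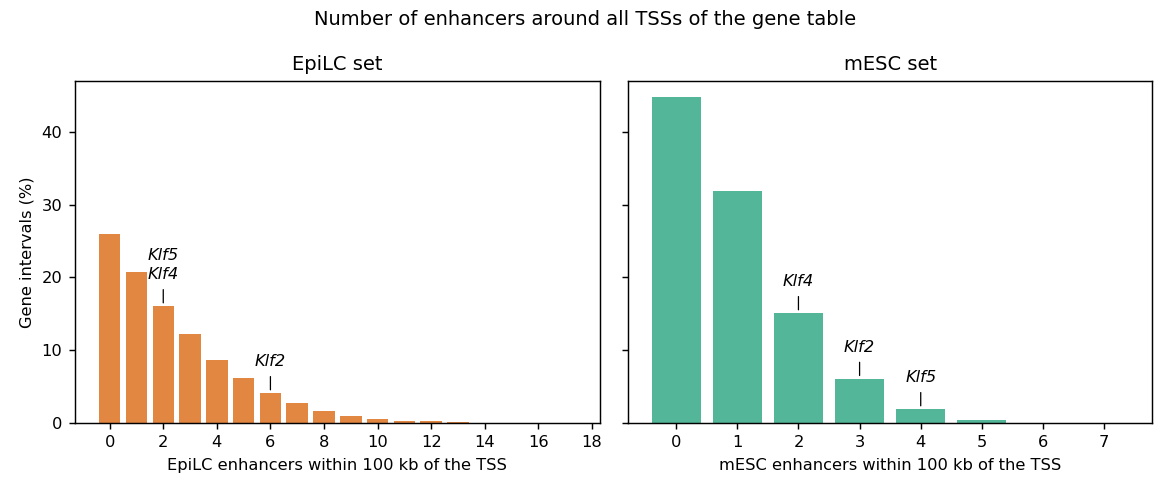
Share of all gene intervals (vertical, percent) with a given number of enhancers within 100 kb of the TSS (horizontal), EpiLC set at left and mESC set at right. Bars are all 24263 intervals, and the names mark the Klf genes: 6, 2 and 2 EpiLC enhancers and 3, 2 and 4 mESC enhancers for Klf2, Klf4 and Klf5.

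Klf4 and Klf5 were compared with the 247 TSSs (1.02% of all) that had at least 20 kb of mESC enhancer. These had a median of 14.6 kb of EpiLC enhancer (quartiles 7.86 and 30.5 kb), against the 1.18 kb of Klf4 and the 3.35 kb of Klf5. Including the Klf genes themselves, 11 of the 247 had no more EpiLC width than Klf4 and 28 (11.3%) no more than Klf5. The TSSs of a cluster share regions, so these are not independent loci.

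Of the 14 other KLF genes listed, 11 had more EpiLC enhancers (58.5% of all TSSs did), 1 had more mESC enhancers and 2 had equal numbers. Their median was 4 EpiLC enhancers (range 0 to 7) and 1 mESC enhancer (range 0 to 4). A leading block region was near 3 of them, namely Klf3, Klf9 and Klf13. Klf9, which is induced by steroid and thyroid hormones, had 7 EpiLC and 4 mESC enhancers with 53.35 and 34.75 kb. Klf13 had 7 EpiLC and 1 mESC enhancer, Klf3 had 6 and 2, and Klf6 had 6 and 1. Klf17 had none in either set. The mESC widths of Klf4 and Klf5 exceeded those of all listed KLF genes except Klf9, which had more than both.

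Of the 16 other genes of the naive network and LIF signalling, 7 had more EpiLC enhancers, 3 had more mESC enhancers and 6 had equal numbers. Over all gene intervals 14200 had more EpiLC enhancers and 7261 had equal numbers, of which 4519 had none in either set. The median of the naive list was 2.5 EpiLC (range 0 to 9) and 2 mESC enhancers (range 0 to 5), and 9 of the 16 had a leading block region nearby. Tcf7l1, a repressor of the WNT pathway that acts on naive genes, had 9 EpiLC and 3 mESC enhancers. Nanog had 6 EpiLC and 5 mESC enhancers, Dppa3 had 5 and 5, and Prdm14 had 7 and 2. Prdm14, a regulator of germ cells and of naive pluripotency, had 15.32 kb of EpiLC and 50.09 kb of mESC enhancer, and so the greater width in the mESC set. The same held for 6 of the 16 genes, the others being Gbx2, Nr0b1, Nr5a2, Tbx3 and Tfcp2l1, and for 1 of the 14 other KLF genes, Klf8. Esrrb had none in either set within 100 kb of the TSS of its interval, but 6 EpiLC and 2 mESC enhancers farther inside it, from 105.48 kb onwards, and both of these mESC enhancers belong to the leading block.

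**Figure D4:**
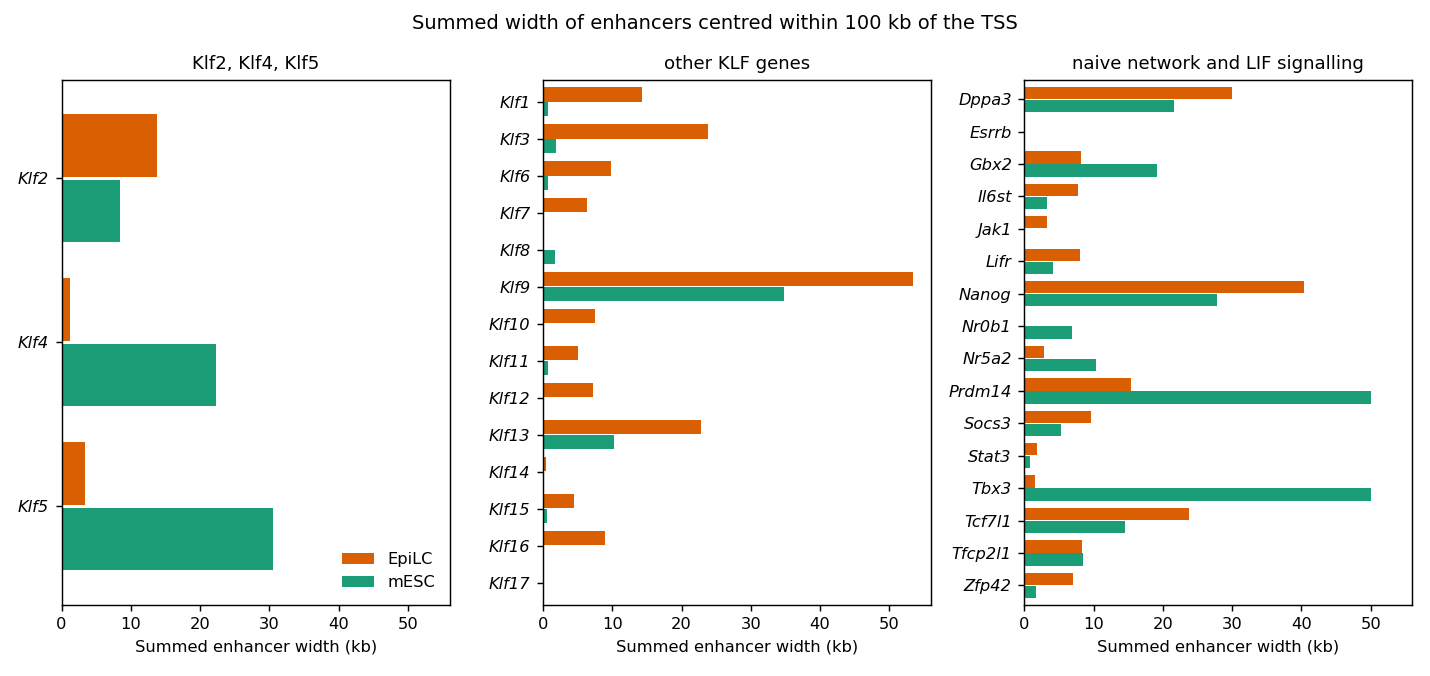
Summed width (horizontal, kb) of the EpiLC (upper bar) and mESC (lower bar) enhancers centred within 100 kb of each TSS, for the 3 Klf genes, the other KLF genes and the naive network and LIF genes. Klf4 (1.18 and 22.3 kb) and Klf5 (3.35 and 30.5 kb) have short EpiLC and long mESC bars, and Klf2 (13.7 and 8.49 kb) does not.

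Likeness in layout was measured as the Euclidean distance between enhancer counts of each set in 3 distance bins (0 to 10, 10 to 50 and 50 to 100 kb), for genes on other chromosomes. The layout of Klf2 was met exactly by Mir296 and Mir298, both on chromosome 2, which need not be independent loci. Next came 15 genes at a distance of 1, among them Cdc42ep4. The layout of Klf4 was met exactly by 63 genes, of which the first by symbol were 1600019K03Rik, 4930432M17Rik and A230072C01Rik. For Klf5 no gene was equal, and Atxn7l1os2, Chic2 and Ckap4 were the first of 20 at a distance of 1. None of the 9 genes named had a leading block region within the window, as was the case for all but 3.19% of TSSs.

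The sequences of the 10 EpiLC and 9 mESC enhancers were searched on both strands for 7 short motifs, namely KLF GGGNGTGGC, the SOX-POU composite TTGTNATGC, the POU octamer ATGCAAAT, ESRRB TCAAGGTCA, STAT TTCCNGGAA, TCF/LEF CTTTGAT and OTX TAATCC. A SOX-POU match was found in 0 of 10 EpiLC and 2 of 9 mESC enhancers, against 9.49% of all EpiLC and 11.6% of all mESC enhancers. ESRRB matches were in 0 of 10 EpiLC and 4 of 9 mESC enhancers (7.85% and 8.05% of the whole sets), and STAT matches in 0 of 10 and 2 of 9 (7.33% and 5.55%). Octamers were in 2 of 10 EpiLC and 4 of 9 mESC enhancers (15.4% and 18.0%). KLF matches were in 2 of 10 EpiLC and 2 of 9 mESC enhancers (15.8% and 11.1%), TCF/LEF in 4 of 10 and 5 of 9 (27.4% and 21.8%) and OTX in 3 of 10 and 5 of 9 (52.5% and 35.5%). The wide mESC regions hold more letters, so these shares are not comparable with those of whole sets of narrower regions.

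Per kb the mESC enhancers of the Klf genes had 0.0979 octamers, against 0.129 in the whole mESC set. They had 0.0489 SOX-POU matches per kb, against 0.0713, and 0.0326 KLF matches, against 0.0812. For STAT the densities were 0.0326 and 0.035 per kb, and for TCF/LEF 0.179 and 0.195. ESRRB stood at 0.0979 against 0.053 per kb and OTX at 0.685 against 0.475. Of these matches, 4 of the 6 ESRRB and 25 of the 42 OTX lay in repeat-masked sequence. The masked share of matches over the whole mESC set was not determined, so whether repeats raised these densities was not tested. By length, then, 5 of the 7 motifs were at or below the density of the whole mESC set. The EpiLC enhancers of the Klf genes had 0.164 KLF matches per kb, against 0.084 in the whole EpiLC set, from only 3 matches, all at Klf2.

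Over the 7 motifs, 12 of the 72 matches in the mESC enhancers (16.7%) lay inside EpiLC enhancers, which cover 14.9% of that length. By motif, 0 of 3 SOX-POU, 0 of 6 ESRRB, 0 of 2 STAT, 2 of 6 octamer, 1 of 2 KLF, 3 of 11 TCF/LEF and 6 of 42 OTX matches lay there. The EpiLC enhancers of Klf4, of 875 and 300 bp, held none of the 7 motifs. Both belong to the lowest width quartile of the EpiLC set. In that quartile a motif was found in 2.03% (STAT) to 22.8% (OTX) of enhancers, so each motif was absent from most of them. In the wide Klf4 region both SOX-POU matches, both ESRRB matches and the STAT match were in the part found in the mESC set alone, which is 95.4% of that region. Both of these SOX-POU matches lay partly in repeat-masked sequence, and 1 of these ESRRB matches lay wholly in it. The wide downstream Klf5 region held 3 octamers, of which 1 was in the part shared with the EpiLC set. In the upstream Klf5 region of 12521 bp, the SOX-POU match and both ESRRB matches lay in repeat-masked sequence.

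**Figure D5:**
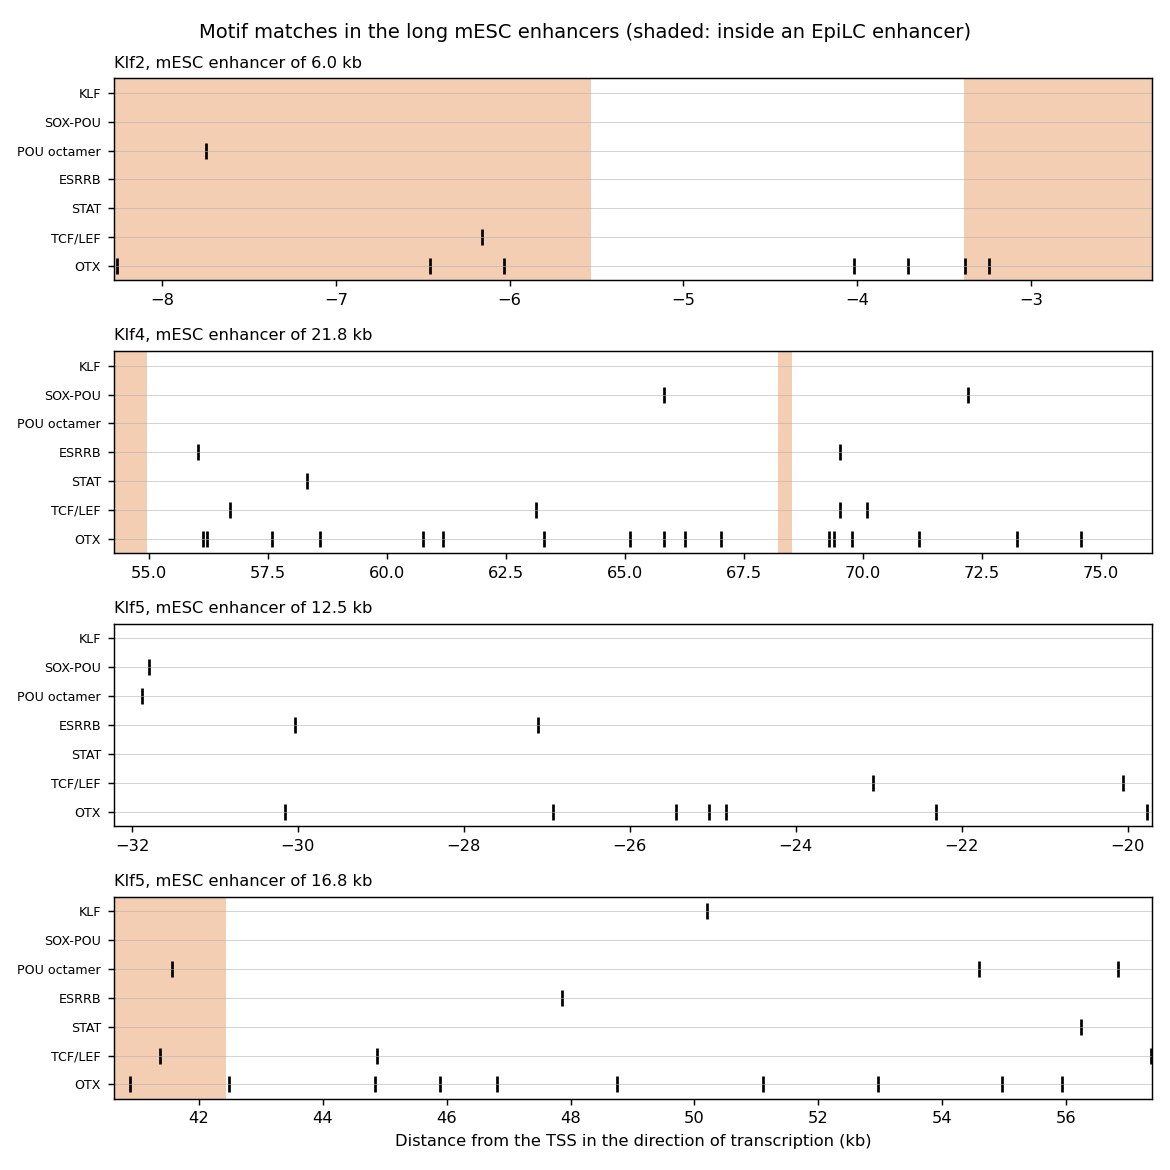
Places of the motif matches (ticks, 1 line per motif) in the 3 leading block regions and the upstream region of 12521 bp at Klf5, by distance from the TSS in kb. Shading marks the parts inside EpiLC enhancers. The shaded parts of the Klf4 region, 4.62% of its bases, hold no match, and the Klf5 upstream region has no shading.

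None of the 6 octamers in the mESC enhancers lay in repeat-masked sequence. They are shown with 30 bases on each side, on the strand of the match and with the motif in capitals, except the one at 12.65 kb of Klf4, which stands in the sequence given for that enhancer. The matches at -7.75 kb of Klf2 (chr8:72311278-72311345, plus strand) and 41.57 kb of Klf5 (chr14:99340230-99340297, minus strand) lay in enhancers of both sets. Those at -31.88 kb (chr14:99266774-99266841, plus strand), 54.6 kb (chr14:99353261-99353328, plus strand) and 56.84 kb (chr14:99355502-99355569, minus strand) of Klf5 lay in mESC enhancers alone. The KLF match inside regions of both sets, at 15.54 kb of Klf2 (chr8:72334572-72334640, plus strand), is added because it lies at a gene that itself encodes a KLF protein.
Klf2 octamer at -7.75 kb: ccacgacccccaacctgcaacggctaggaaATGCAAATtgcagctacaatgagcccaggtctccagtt
Klf5 octamer at -31.88 kb: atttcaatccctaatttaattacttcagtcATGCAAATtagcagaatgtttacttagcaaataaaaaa
Klf5 octamer at 41.57 kb: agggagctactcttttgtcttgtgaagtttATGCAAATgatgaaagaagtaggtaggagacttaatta
Klf5 octamer at 54.6 kb: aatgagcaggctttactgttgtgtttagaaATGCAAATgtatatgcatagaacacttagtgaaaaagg
Klf5 octamer at 56.84 kb: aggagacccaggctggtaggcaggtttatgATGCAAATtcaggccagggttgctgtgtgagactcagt
Klf2 KLF match at 15.54 kb: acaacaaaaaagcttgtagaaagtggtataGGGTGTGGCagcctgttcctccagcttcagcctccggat

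The EpiLC enhancer across the Klf2 TSS had a GC content of 54.0% and 33.9 CpG per kb, against medians of 47.7% and 13.4 over the EpiLC set. The wide block regions of Klf4 and Klf5 had a GC content of 46.2% and 43.2%, against a median of 45.0% over the mESC set. Their repeat-masked shares were 31.4% and 30.2%, against a median of 17.6%. Those of the Klf2 mESC regions were 23.9, 34.0 and 35.4%, and those of the upstream Klf5 regions 38.6 and 34.4%. The share of the 479 bp mESC region of Klf4 was 10.0%. The EpiLC enhancers of Klf4 were 5.14% and 0% repeat-masked, and those of Klf5 9.33% and 7.15%. Those of Klf2, in order from -23.21 to 82.05 kb, were 8.57, 30.7, 41.3, 29.4, 39.2 and 7.26% masked. The median over the EpiLC set was 19.7%. These medians are over regions of all widths, and masking was not compared at equal width. The 629 bp mESC region of Klf5, inside the first of its EpiLC enhancers, was 7.0% repeat-masked.

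The promoter sequences of Klf2 and Klf4 were GC-rich, and the promoter set used held none for Klf5. That of Klf2 had a GC content of 69.3% with 32 CpG, and that of Klf4 74.3% with 40 CpG, against medians of 52.7% and 7 over 32851 RefSeq promoters of the same length. A GC content at least as high was found in 10.5% of promoters for Klf2 and 4.44% for Klf4. The GC box GGGCGG, searched on both strands, occurred 2 times in the Klf2 promoter and 4 times in that of Klf4, and at least 1 time in 35.7% of all promoters. None of the 7 motifs was in either promoter, and they occurred in 0.423% (ESRRB) to 7.06% (OTX) of all promoters.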

How the data were processed

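The deposited tables are region sets in mm10 with a chromosome, start, end and strand. They have 0 columns with a value per library. Per the series' design text, the authors lifted enhancers of earlier publications over to mm10, and the EpiLC set rests on H3K27ac, H3K4me1 and p300 peaks. Neither the liftover tool nor the rule behind the gene intervals is stated in the labels. Tools listed by the submitters' processing notes, without roles, are bedtools 2.29.2, Bowtie2 2.3.4.1 and Trimmomatic 0.38, with the builds mm10 and dm6.

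Of 24402 gene intervals 23811 were named by matching RefSeq or GENCODE M21, and 24263 were kept after removal of duplicates and intervals off the chromosomes. Each interval's 5' end served as its TSS. Gene starts count from 0 (12038 exact RefSeq matches, against 329 from 1). Enhancer starts were read likewise, which leaves them uncertain by 1 bp. Overlap counted from 1 bp. Scripts used Python 3.11.15, pandas 2.3.3, NumPy 2.4.6 and pysam 0.24.0 and were tested on simulated data.

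The Klf genes, lists and motifs were chosen with earlier results of these data known. Named genes were the members, genes with a TSS within 100 kb, the 4 listed genes with most enhancers and those with none, and the 3 most alike. Chosen after seeing the data were the comparison with TSSs of at least 20 kb and the GC, CACCC and TATA boxes. So were the octamer stretches and the comparison among block regions of 10 kb or more. Alternatives varied the window, the overlap rule, joining, the TSS and the motif search.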

Additional observations from a re-analysis of the deposited data

How the results depend on the processing

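Counts within 100 kb kept their values, within 1.5 times, when enhancers were placed by any base or when the RefSeq TSS was used. Leaving out regions centred at promoters could not change them, because none of these enhancers was centred within 1 kb of a TSS. Overlap counts did not move with starts counted from 1. With a 50 kb window Klf4 had 0 EpiLC and 1 mESC enhancer, and with a 200 kb window Klf2 had 10 EpiLC enhancers and Klf4 3 EpiLC and 2 mESC enhancers, so that the direction at Klf4 depended on the window. Joining nearby regions across short gaps left Klf2 with 3 EpiLC and 3 mESC regions. Counting only enhancers whose nearest TSS was Klf4 left 1 EpiLC and 1 mESC enhancer, and without the leading block Klf4 had 1 mESC enhancer. Requiring 50% of both regions left 1 EpiLC and 1 mESC enhancer that overlapped (4.97% and 9.36% of the whole sets), regions of 500 bp around the centres left 2 and 2 (14.1% and 26.1%), and a centre inside the other region left 6 and 2 (18.8% and 34.3%). With 50 kb, at least as many EpiLC enhancers were found at 4.19% of TSSs for Klf2, 100% for Klf4 and 32.1% for Klf5, and at least as many mESC enhancers at 1.39%, 35.7% and 1.39%. With 200 kb the EpiLC values were 62.1% for Klf4 and 74.5% for Klf5, and the mESC values 28.2% for Klf2 and 49.2% for Klf4. With EpiLC regions extended by 1 kb on both sides, an alternative chosen after seeing the data, the covered share of the block regions was 97.6% at Klf2, 18.4% at Klf4 and 16.7% at Klf5, with a block median of 97.6%, and 50.2% of block regions were covered no more than that of Klf2. The causes of these shifts were not tested. Of the 28 motif results under other searches, 13 moved. No paired analysis was possible because the lists carry no libraries.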

Other observations

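Among the 28 TSSs with at least 20 kb of mESC enhancer and no more EpiLC width than Klf5, several belonged to other known regulators, named here after their values were seen. Tbx3, a T-box factor of the naive network, had 1.5 kb of EpiLC and 50.05 kb of mESC enhancer, with 3 enhancers in each set. Hoxb7, Hoxb8 and Hoxb9, neighbouring homeobox genes of the trunk, each had 2.38 kb of EpiLC and 23.35 kb of mESC enhancer. Eras, a RAS-like gene of mESCs, had 1.15 kb of EpiLC and 20.49 kb of mESC enhancer, and Gata1, a blood cell regulator that is also X-linked, had 1.15 and 21.17 kb. Eras and Gata1 each had 3 EpiLC enhancers and 1 leading block region. Equal values, as also at the Hoxb genes, can come from shared regions, so these TSSs need not be independent loci. Klf8, also X-linked, had 0 EpiLC and 3 mESC enhancers, and was the only other KLF gene listed with more mESC than EpiLC enhancers.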
